A study of Mus musculus with 7 samples.

Results

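Kupffer cells, the resident macrophages of the liver, were taken from 3 single-cell RNA libraries of livers without tumor, NEJ638, NEJ654 and NEJ677. A barcode, the tag that stands for a droplet and so for a cell, entered when it held more than 1000 UMIs (unique molecular identifiers, each counting 1 captured RNA molecule) with at most 20% of them from mitochondrial genes. Kupffer barcodes were chosen by their C1q counts: a passing barcode was kept when the 3 C1q genes, C1qa, C1qb and C1qc, together gave at least 10 UMIs and at least 1% of all UMIs outside mitochondrial and hemoglobin genes. The rule kept 1575 of 18897 passing barcodes of the 3 libraries, beside 100676 passing barcodes in all 7 libraries of the series. NEJ638 gave 153 of 6377 passing barcodes (2.40%, exact 95% binomial interval 2.04 to 2.81). NEJ654 gave 858 of 5674 (15.1%, 14.2 to 16.1) and NEJ677 gave 564 of 6846 (8.24%, 7.60 to 8.91).

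The study profiled livers of a mouse model of hepatoblastoma, in which a Cre recombinase under the hepatocyte albumin promoter (Alb-Cre) turns on a MYC transgene under the CAG promoter (CAG-MYC), with 4 tumors and 3 livers of unaffected littermates on a C57BL/6J background. The littermates carried the MYC allele alone (CAG-Myc +/wt without Cre, Alb-Cre wt/wt), the Cre alone (Alb-Cre +/wt without the transgene, CAG-MYC wt/wt) or neither of them, and the sources used here do not say which of these, or which age, belongs to which of the 3 libraries. The deposited labels describe every library as tissue of the tumor model, and the text of the study names the other 4, NEJ634, NEJ687, NEJ709 and NEJ723, as tumors. The 3 libraries were therefore not treated as replicates of a labelled group: each value is given per library, with an interval for counting error only, and no test between libraries or groups was made. Livers were perfused with collagenase, filtered and loaded on droplet chips without a sort, so these barcodes are what survived dissociation and passed the UMI minimum.

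Kupffer cells line the sinusoids, the wide capillaries of the liver, where they bind and engulf particles, bacteria and old red cells from portal blood, recycle the iron of heme and clear lipoproteins. They arise before birth from fetal precursors and renew themselves in place, and in mice they are told from blood-derived macrophages by the lectin Clec4f, the complement receptor Vsig4 and the phosphatidylserine receptor Timd4. C1q, the first component of the classical complement pathway, is assembled from A, B and C chains that macrophages make themselves, unlike most complement proteins, which hepatocytes secrete.

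Among the libraries, NEJ638 stood apart in its mitochondrial UMIs. Its Kupffer barcodes had a median of 5.38% mitochondrial UMIs, against 2.27% in NEJ654 and 2.21% in NEJ677. Its other passing barcodes had 6.70%, against 1.92% and 1.95%, so the difference was not particular to Kupffer barcodes. Their median C1q share, on which the rule chose them, was 1.24% in NEJ638 Kupffer barcodes, closer to the minimum than the 1.77% and 1.67% of the others. The total UMIs per library were 40214395, 42191233 and 47253154 (here and below, sets of 3 values follow the order NEJ638, NEJ654, NEJ677). Barcodes over 500 UMIs numbered 11464, 9208 and 9265. Of these, 745, 2556 and 1315 had up to 1000 UMIs, and 6377, 5674 and 6846 passed. NEJ638 therefore lost the most barcodes to the mitochondrial limit, and the part of this loss in its values was not tested. The median Kupffer barcode held 3522, 3114.5 and 5668 UMIs and 1628, 1408.5 and 2160.5 genes. Hemoglobin genes gave 0.534%, 0.342% and 0.916% of the UMIs of Kupffer barcodes, against 10.2% to 14.2% in the other passing barcodes. Of the Kupffer barcodes, 1, 34 and 11 had a barcode sequence that also passed in another of the 7 libraries, and 0, 3 and 1 of those met the C1q rule there too.

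Levels below are in CPM, UMIs of a gene per 1000000 UMIs outside mitochondrial and hemoglobin genes, summed over the Kupffer barcodes of a library. They are compared for the same gene between sets of barcodes, and not between genes. Each was set beside the other passing barcodes of the same library, beside lymphocyte barcodes (745, 1345 and 1939 barcodes with at least 5 UMIs of B cell or of T and NK cell markers), which should lack macrophage genes, and beside the ambient profile, the RNA free in the suspension, read from barcodes ranked 45000 to 90000 by UMIs. In NEJ638 the lymphocyte barcodes also held the mesenchymal gene Col3a1 at 741 CPM, against 190 CPM in the other passing barcodes. That set was therefore not lymphocyte RNA alone. The other passing barcodes include those below the C1q minimum that also carried Clec4f, described below, and hold most of the C1q UMIs of NEJ638. Ratios of Kupffer genes to the other passing barcodes are lowered by these barcodes, and not equally in the 3 libraries.

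Macrophage genes are known targets of PU.1, the factor that Spi1 encodes. The windows just before the start of 4 genes are shown: C1qb, a gene of the rule, and the markers Vsig4, Cd5l and Timd4, which the rule did not use. Each is the 250 bases before the RefSeq start on GRCm38.p6, read 5′ to 3′ along the strand of the gene, and the capitals mark the core GAGGAA of the PU.1 motif or its reverse complement TTCCTC. The windows lie at chr4:136886201-136886450 on the minus strand (C1qb), chrX:96293439-96293688 on the minus strand (Vsig4), chr3:87357631-87357880 on the plus strand (Cd5l) and chr11:46810549-46810798 on the plus strand (Timd4).
C1qb: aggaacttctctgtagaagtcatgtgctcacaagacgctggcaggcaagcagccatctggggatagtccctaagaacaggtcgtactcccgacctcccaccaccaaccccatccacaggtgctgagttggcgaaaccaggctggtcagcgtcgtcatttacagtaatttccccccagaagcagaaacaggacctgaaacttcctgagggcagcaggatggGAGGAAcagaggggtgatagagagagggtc
Vsig4: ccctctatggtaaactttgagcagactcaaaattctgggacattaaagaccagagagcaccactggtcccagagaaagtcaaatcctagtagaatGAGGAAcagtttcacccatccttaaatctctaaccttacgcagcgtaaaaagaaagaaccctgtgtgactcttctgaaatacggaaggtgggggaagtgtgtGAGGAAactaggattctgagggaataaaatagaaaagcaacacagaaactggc
Cd5l: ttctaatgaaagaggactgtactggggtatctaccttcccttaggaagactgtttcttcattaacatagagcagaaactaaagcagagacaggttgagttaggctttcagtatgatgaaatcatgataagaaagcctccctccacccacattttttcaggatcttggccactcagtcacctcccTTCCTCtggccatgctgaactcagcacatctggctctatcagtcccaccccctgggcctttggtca
Timd4: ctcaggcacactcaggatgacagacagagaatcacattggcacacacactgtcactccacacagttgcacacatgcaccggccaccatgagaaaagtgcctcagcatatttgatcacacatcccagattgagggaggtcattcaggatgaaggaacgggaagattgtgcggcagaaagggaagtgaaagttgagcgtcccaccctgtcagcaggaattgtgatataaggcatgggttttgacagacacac

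The PU.1 core began 30 bases before the C1qb start, 155 and 53 bases before the Vsig4 start and 66 bases before the Cd5l start, and was not found in the Timd4 window. Over the C1q genes and the 15 Kupffer identity genes described below, 15 of 18 genes had a window in the RefSeq table, 16 windows in all; C1qa, Cdh5 and Paqr9 had none there. The PU.1 core was in 7 of the 16 windows, read on both strands, and in 23.3% of all 32851 windows of the same length. The core TGGGAA of the motif of RBPJ, the nuclear partner of Notch, was in 3 windows (21.6% of all). None of the 4 windows printed held the RBPJ core, which was in those of Clec4f, Marco and Fcna. The Clec4f window, not printed, held it 35 bases before the start and held no PU.1 core. A match is only an occurrence of the letters, and these counts were not tested.

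The 3 genes of the rule lie side by side on the minus strand of chromosome 4 (GRCm38, GENCODE M21), C1qb at 136880129 to 136886187, C1qc at 136889804 to 136893065 and C1qa at 136895917 to 136898803. In Kupffer barcodes C1qa was at 4414, 7023 and 6284 CPM, C1qb at 4244, 6363 and 5804 CPM, and C1qc at 3954, 5112 and 4643 CPM. Levels of all 3 were lowest in NEJ638 and highest in NEJ654, and as they chose the barcodes they are a description. Within the C1q UMIs of Kupffer barcodes, C1qa gave 35.0%, 38.0% and 37.6%, C1qb 33.7%, 34.4% and 34.7%, and C1qc 31.4%, 27.6% and 27.8%. The chains therefore kept nearly the same proportions in NEJ654 and NEJ677, with more C1qc and less C1qa in NEJ638.

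The minimum of 1% cuts through a continuous range rather than between separate populations. Just inside it, at 1 to 1.1%, lay 33, 71 and 43 Kupffer barcodes, and just outside, at 0.9 to 1%, lay 56, 66 and 49 passing barcodes. Between 0.25% and 1% lay 566, 835 and 632 barcodes, 8.88%, 14.7% and 9.23% of the passing barcodes, so that they outnumbered the Kupffer barcodes in NEJ638 and NEJ677 and nearly equalled them in NEJ654. The rule held 31.5% of the C1q UMIs of all passing barcodes in NEJ638, against 72.9% in NEJ654 and 71.2% in NEJ677. Clec4f, which the rule did not use, was at 11.9, 37.0 and 23.5 CPM in barcodes with no C1q UMI, at 1489.8, 1031 and 1257 CPM at 0.25 to 0.5% C1q, and at 2609, 2549 and 2412 CPM at 0.75 to 1%. It went on climbing above the minimum, to 3607, 3163 and 3188 CPM at 1 to 1.5% and to 5862 and 5853 CPM above 3% in NEJ654 and NEJ677; in NEJ638 only 2 barcodes lay above 3%, at 3646 CPM. Stab2, a scavenger receptor of sinusoidal endothelium, ran the other way, from 757, 497 and 591 CPM at 0.25 to 0.5% to 122, 283 and 368 CPM at 1 to 1.5%.

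**Figure D1:**
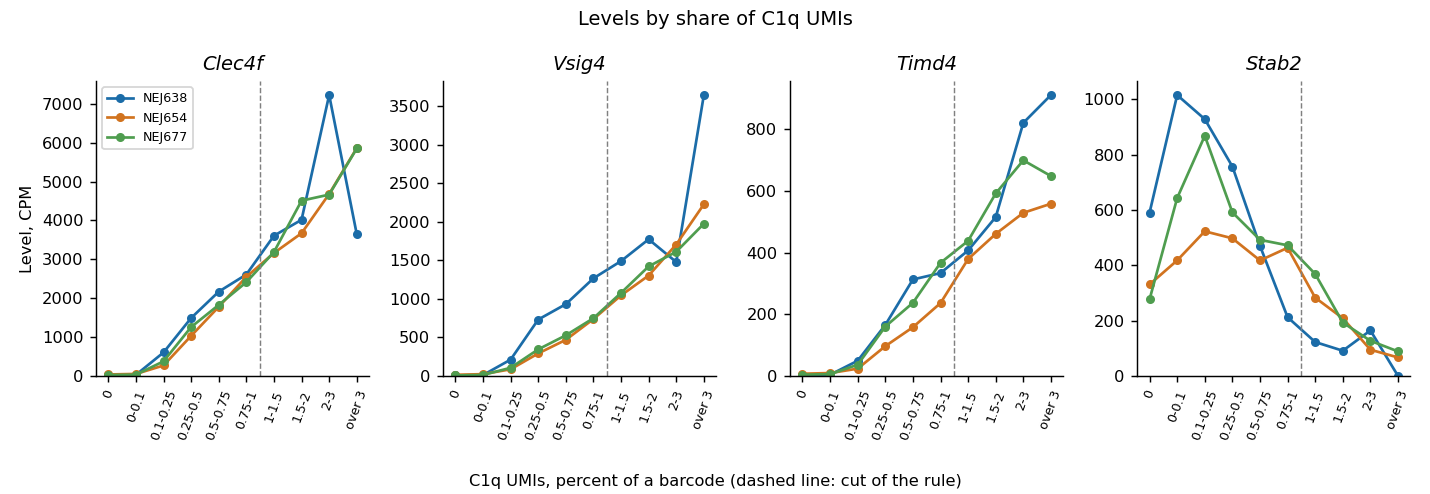
Levels of Clec4f, Vsig4, Timd4 and Stab2 in CPM (linear axes) in passing barcodes binned by their percentage of C1q UMIs, with a line for each of 3 libraries and a dashed line at the 1% minimum of the rule. The 3 Kupffer markers climb through the minimum without a step, while Stab2 is lower above the minimum than at 0.25 to 0.5%; the bins above 2% in NEJ638 hold 6 and 2 barcodes.

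Clec4f, the Kupffer lectin, was the most even of the markers between libraries: it was at 3723 CPM (95% interval 3558 to 3893) in NEJ638, 3914 (3849 to 3979) in NEJ654 and 3919 (3853 to 3986) in NEJ677. The other passing barcodes held 318, 408 and 289 CPM, the lymphocyte barcodes 59.8, 115 and 83.8 CPM. Vsig4, the receptor for complement fragments on the Kupffer surface, was at 1539, 1383 and 1309.8 CPM, 10.6, 11.5 and 15.4 times the other passing barcodes. Timd4, which binds phosphatidylserine on dying cells and marks long-lived residents, was at 427, 457 and 543 CPM, 10.3, 11.4 and 13.6 times the other passing barcodes. All 3 markers were thus present in each library, and the barcodes matched the label Kupffer.

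At least 1 Clec4f UMI was found in 97.4%, 97.6% and 97.3% of Kupffer barcodes, against 3.76%, 14.1% and 8.61% of lymphocyte barcodes. The median lymphocyte barcode held 1639, 2429 and 2525 UMIs, fewer than the Kupffer median in each library. After every barcode was thinned to 1000 UMIs, Clec4f was in 93.7%, 93.8% and 94.1% of Kupffer barcodes and in 2.26%, 6.23% and 3.85% of lymphocyte barcodes. Timd4 was in 71.9%, 69.3% and 82.6% of Kupffer barcodes, or 34.3%, 35.0% and 40.7% when thinned, against 0.584%, 1.39% and 0.787% of thinned lymphocyte barcodes. Clec4f, Vsig4 and Timd4 were all detected in 69.3%, 64.1% and 79.4% of Kupffer barcodes and in 0.403%, 1.19% and 0.722% of lymphocyte barcodes. None of the 3 was seen in 2, 8 and 5 Kupffer barcodes. Per barcode, Clec4f had a median of 3743, 3723 and 3967 CPM, with the 10th to 90th percentile from 1821 to 6090 in NEJ638, 1586 to 7404 in NEJ654 and 1896 to 6987 in NEJ677.

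**Figure D2:**
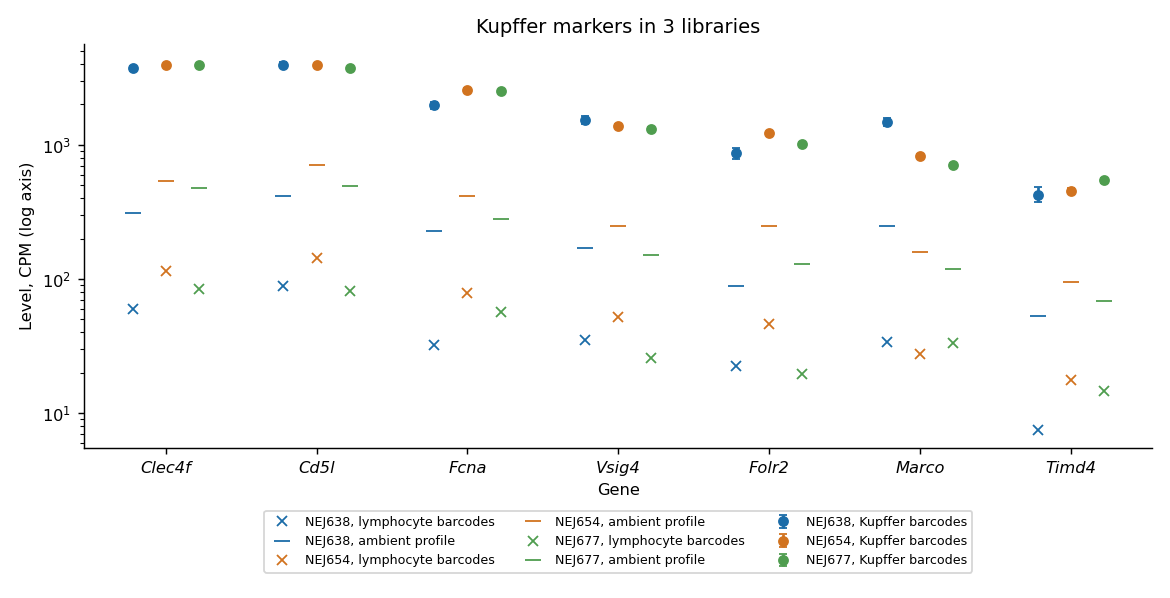
Levels in CPM (log axis) of 7 Kupffer markers in 3 libraries, with circles and 95% Poisson bars for Kupffer barcodes, crosses for lymphocyte barcodes and dashes for the ambient profile. For every marker drawn the circles lie above the dashes and the dashes above the crosses in each library.

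For a view across genes, a gene was called higher when its ratio of Kupffer to other passing barcodes was at least 2 in each of the 3 libraries and lower when it was at most 0.5 in each, among 10163 genes with at least 100 UMIs in each library. Of these, 516 were higher (5.08%) and 1470 lower (14.5%), and the median ratio over all genes was 0.806, 0.820 and 0.850. These counts depended on the settings: 974 genes were lower with a C1q minimum of 5 UMIs and 0.5% and 35 with one of 20 UMIs and 2%. At that stricter minimum NEJ638 kept few barcodes, and a gene at 0 UMIs was set to the floor of 3 UMIs. Few genes could therefore be called lower there, whatever their level. Against lymphocyte barcodes 1262 were higher and 824 lower, and with a ratio of 4 in place of 2 the counts were 166 and 477. The rule chose the barcodes by the same contrast, so the counts and ratios below describe the cells and no p-value belongs to them. Of 15 Kupffer identity genes, 14 were higher, with a median ratio of 9.47 against 0.831 over all genes tested (the median over genes of the middle of the 3 library ratios).

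Cd5l, a secreted scavenger-like protein that macrophages release, was at 3947, 3907 and 3719 CPM in Kupffer barcodes, close to even between libraries. Fcna, the ficolin that opens the lectin pathway of complement, was at 1975, 2586 and 2506 CPM. Folr2, a folate receptor of resident macrophages, was at 867, 1221 and 1017 CPM and had ratios of 11.6, 12.3 and 17.4. Marco, a scavenger receptor for bacteria and particles, was the identity gene that most favoured NEJ638, at 1481 CPM against 825 and 703. Hpgd, which breaks down prostaglandins, was at 987, 1542 and 1537 CPM, and Clec1b, the podoplanin receptor, at 236, 542 and 491 CPM, so both were lowest in NEJ638. C6, of the terminal complement complex, was at 348, 407 and 561 CPM, and Il18bp, the secreted trap of interleukin 18, at 433, 393 and 436 CPM. The less abundant members, Kcna2, Pcolce2 and Paqr9, ran from 68.3 to 192 CPM with ratios from 2.67 to 15.9. Cdh5 was the exception, at 560, 423 and 491 CPM in Kupffer barcodes and 660, 373 and 386 CPM in the other passing barcodes, which include the endothelial cells for which this cadherin is known. A Kupffer barcode showed a median of 11, 11 and 12 of the 15 identity genes.

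Ranked by their lowest ratio over the 3 libraries, the first 12 genes were C1qc, C1qa, Cd207, Folr2, Lilra5, Ccl24, C1qb, Fcna, Vsig4, Timd4, Cd209f and Cd209g. The UMI minimum for a gene to be ranked counted Kupffer barcodes too. Cd207 held 90, 98 and 112 UMIs in the other passing barcodes. In NEJ638 and NEJ654 it therefore met the minimum only with its Kupffer UMIs. Cd209g was scarce there too, at 6.71, 8.38 and 2.49 CPM in the other passing barcodes. Genes scarce in both sets of barcodes were not ranked. Cd207, a lectin known as langerin from the dendritic cells of the skin, was at 85.0, 78.0 and 94.2 CPM against 6.16, 6.27 and 5.07 CPM in the other passing barcodes. It lies next to Clec4f on chromosome 6, at 83671215 to 83677857 against 83644542 to 83656187, both on the minus strand. Its UMIs came from few barcodes: 17.0%, 15.3% and 22.5% of Kupffer barcodes had any. Cd209f and Cd209g, which belong to the mouse family of the lectin DC-SIGN, were at 197, 430 and 234 CPM and at 67.6, 124 and 71.2 CPM, both highest in NEJ654. Their sequences resemble those of other family members, so reads may be shared among copies. Lilra5, an immunoglobulin-like receptor of myeloid cells, was at 131, 146 and 165 CPM with ratios from 11.2 to 15.9.

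General macrophage genes followed the identity genes. Of 10 genes, 9 were higher, with a median ratio of 7.12, and the exception was Lgals3, at ratios of 1.72, 2.39 and 2.59. Csf1r, the receptor for the growth factor on which macrophages depend, was at 1128, 1198 and 1341 CPM. Adgre1, which encodes F4/80, was at 743 CPM in NEJ638 and 321 and 385 CPM in the others. Lyz2, lysozyme, ran the opposite way, at 1763, 3386 and 4268 CPM. Of 9 scavenger and phagocytic receptors tested, 4 were higher (Cd163, Axl, Lrp1 and Scarb1) and Stab1 was lower, with a median ratio of 1.99. Cd163, the receptor for hemoglobin bound to haptoglobin, was at 282, 253 and 271 CPM with ratios of 9.09, 8.49 and 12.4. Axl, a receptor tyrosine kinase for dying cells, was at 587, 404 and 383 CPM with ratios of 9.46, 7.97 and 9.90. Mrc1, the mannose receptor, was at 732, 563 and 785 CPM in Kupffer barcodes and at 810, 554 and 579 CPM in the others, among which are endothelial cells known to carry it. Stab1, at 81.1, 137 and 189 CPM, had ratios of 0.149, 0.362 and 0.478.

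Of 12 complement genes beyond C1q, 3 were higher in Kupffer barcodes, C2, Cfp and C3ar1, 3 were lower, C3, Itgax and Serping1, and 6 were neither, with a median ratio of 1.76. Cfp encodes properdin, which stabilises the alternative pathway convertase, and was at 1494, 1334 and 1183 CPM, 9.18, 9.55 and 11.8 times the other passing barcodes. C3ar1, the receptor for the C3a fragment, was at 236, 76.6 and 115 CPM. C3 itself, which hepatocytes make in bulk, was at 57.9, 114 and 48.7 CPM, with ratios of 0.0687, 0.183 and 0.105. Itgax, a chain of complement receptor 4, was at 1.93, 1.70 and 4.43 CPM.

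The genes of heme and iron handling held 7 higher of 12 and a median ratio of 2.77. Hmox1, heme oxygenase 1, which opens the heme ring, was at 2668 CPM in NEJ638 and at 888 and 599.5 CPM in NEJ654 and NEJ677. Slc40a1, ferroportin, which exports the iron, was at 2087 CPM in NEJ638 and at 937 and 1244 CPM in the others. Both stood higher than in the other passing barcodes of each library, Hmox1 at ratios of 4.44, 6.81 and 7.03 and Slc40a1 at 6.38, 5.98 and 7.69. The other passing barcodes were also highest in NEJ638, with Hmox1 at 601, 130 and 85.2 CPM and Slc40a1 at 327, 157 and 162 CPM. In Kupffer barcodes Blvrb, a biliverdin reductase, ran the other way, at 651, 1249.6 and 1058 CPM. Ftl1, a chain of ferritin, did so too, at 6665, 9356 and 7989.8 CPM. Blvra, the other biliverdin reductase, was close to even, at 127, 114 and 116 CPM. Slc11a1, the iron and manganese transporter of the phagosome, was even, at 274, 221 and 240.1 CPM. Hp and Hpx, the plasma carriers of hemoglobin and heme that hepatocytes secrete, were lower, at ratios from 0.0591 to 0.177.

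Of 12 genes of lipid handling and LXR targets, 6 were higher and none lower, with a median ratio of 2.34. Apoe was at 13899, 21599 and 21106 CPM, and was at 4315, 6957 and 5024 CPM in the other passing barcodes. Pltp, the phospholipid transfer protein, was at 759, 585 and 745 CPM with ratios of 9.50, 7.75 and 10.0, the most elevated of the list. Lpl, lipoprotein lipase, was at 803, 413 and 393 CPM. Srebf1 and Scd2, of fatty acid synthesis, had ratios from 0.805 to 1.13. The lysosomal list held 10 higher of 14, with a median ratio of 2.90. Ctsb, cathepsin B, was at 5283, 4016 and 4357 CPM, and Ctsc, which activates serine proteases, at 1433, 1117 and 1055 CPM against 198, 160 and 120 CPM in the other passing barcodes. Lgmn and Grn, a lysosomal protease and progranulin, were highest in NEJ638, at 2475 against 1395 and 1304 CPM and at 2331 against 1319 and 1341 CPM. Ctsl and Lamp2 were the members of this list below 1 in at least 2 libraries, at ratios of 0.767, 0.820 and 1.08 and of 0.761, 0.891 and 1.16.

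Among 16 transcription factors, 7 were higher, among them Spi1, Cebpb, Nr1h3, Spic, Id1 and Zeb2, and none lower, with a median ratio of 2.001. Spi1, which encodes PU.1, was at 384, 414 and 452 CPM. Nr1h3, which encodes LXR alpha, was at 427, 279 and 294 CPM with ratios of 6.33, 6.11 and 6.81. Spic, known for iron-recycling macrophages, was at 149, 92.4 and 108 CPM with ratios of 7.19, 6.63 and 10.1. Id3, a helix-loop-helix inhibitor used as a Kupffer factor, was at 1050.4, 1750.1 and 1457 CPM but also at 643, 1120 and 789 CPM in the other passing barcodes, and was not called. Rbpj was at 57.9, 31.8 and 41.1 CPM, with ratios below 1 in each library. Of 12 receptors for signals of the niche, 5 were higher (Acvrl1, Csf2ra, Csf2rb, Il6ra and Ifngr1) and Eng was lower, with a median ratio of 1.11. Acvrl1, the BMP9 and BMP10 receptor ALK1, was at 79.2, 71.7 and 75.3 CPM with ratios of 2.62, 2.66 and 3.52.

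**Figure D3:**
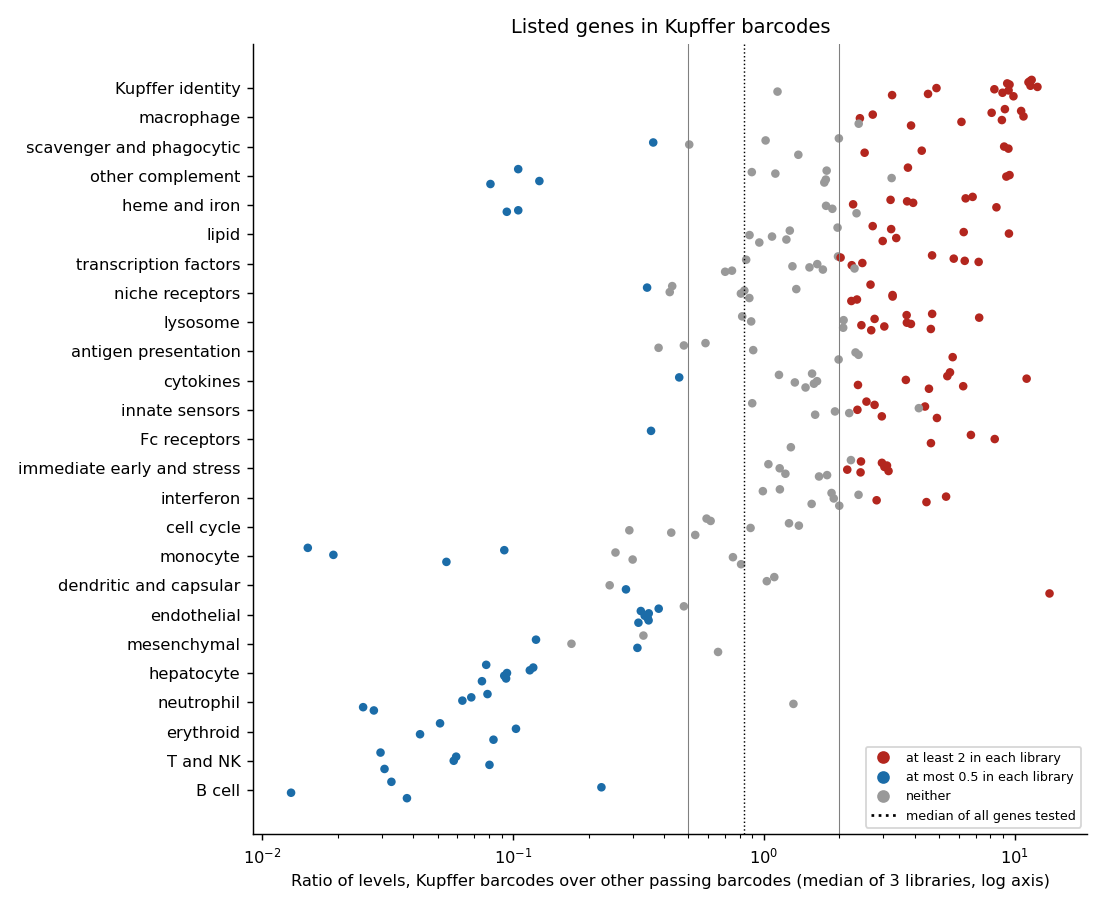
Ratio of the level in Kupffer barcodes to that in the other passing barcodes (log axis, middle of the 3 library ratios), with a point for each listed gene that was tested, red when at least 2 and blue when at most 0.5 in each library. Kupffer identity genes gather near 10, lymphocyte, red cell and hepatocyte genes lie mostly near or below 0.1, and the dotted line marks the median of all genes at 0.831.

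Sensors of microbes were higher for 6 of 11 genes tested, Tlr2, Tlr4, Tlr7, Cd14, Cd180 and Ly86, with a median ratio of 2.57 and none lower. Cd14, the co-receptor for endotoxin, was at 154, 359 and 332 CPM, and Tlr4 itself at 54.1, 34.3 and 39.0 CPM. Of 5 Fc receptor genes, 3 were higher, Fcgr3, Fcgr4 and Fcer1g, with a median ratio of 4.64. Fcgr4, a receptor for IgG2 antibodies, was at 210.5, 209.5 and 242 CPM against at most 27.2 CPM in the other passing barcodes. Fcgr2b, the inhibitory receptor, was lower at 108, 254 and 280.0 CPM against 947, 716 and 681 CPM, and is known to be abundant in sinusoidal endothelium.

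Of 14 cytokine and chemokine genes tested, 7 were higher (Ccl2, Ccl6, Ccl24, Cxcl2, Tnf, Il18 and Pf4) and Ccl9 was lower, with a median ratio of 2.0025. Ccl24, which draws eosinophils through CCR3, was at 684, 859.7 and 648 CPM, and 71.2%, 80.0% and 83.0% of Kupffer barcodes had a UMI of it. Il18, which Kupffer cells are known to make, was at 108, 125 and 95.1 CPM with ratios of 8.10, 6.24 and 6.12. Tnf was at 216 CPM in NEJ638 and at 98.4 and 79.4 CPM in the other libraries. Cxcl2, a chemokine for neutrophils, was at 1846, 1385 and 1182 CPM and is taken up below. Cxcl13, the B cell chemokine, was at 83.9 and 86.2 CPM in NEJ654 and NEJ677 and rested on 1 UMI in NEJ638, at 1.93 CPM.

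Genes that present antigen to CD4 T cells were set against the other passing barcodes, of which B cells are a part. Of 8 MHC class II and co-stimulation genes tested, only Cd86 was called higher and none lower, with a median ratio of 1.45. Cd86 was at 179.6, 164 and 171 CPM with ratios of 5.67, 5.30 and 6.63. H2-DMa and H2-DMb1, which load peptide onto class II, had ratios of 3.74, 1.98 and 2.32 and of 2.48, 1.91 and 2.39. H2-Ab1, a chain of class II, was at 168, 318 and 708 CPM, and Cd74, the invariant chain, at 909, 1202 and 2169 CPM, so both were more than 2 times higher in NEJ677 than in NEJ638. Of 10 interferon response genes, 3 were higher, Irf7, Ifi204 and Ifi207, with a median ratio of 1.95. Irf7 was at 286, 538 and 545 CPM with ratios of 5.06, 5.33 and 5.82.

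Immediate early and stress genes, which dissociation at 37 °C is known to induce, were higher for 7 of 13 genes with a median ratio of 2.23. Their summed level in Kupffer barcodes was 15895, 11297 and 8289 CPM, against 6353, 5448 and 4370 CPM in the other passing barcodes, and their part in the other differences was not tested. Hspa1a and Hspa1b, which encode the inducible HSP70, were at 3744, 1751 and 712 CPM and at 3510.4, 1129 and 410.2 CPM, with the highest values in NEJ638 for both. Fos was at 738, 980.2 and 949 CPM, lowest in NEJ638. Cell cycle genes were called in neither direction in any of 8, with a median ratio of 0.602. Their sum was 981, 419 and 260 CPM in Kupffer barcodes and 1015, 585 and 370 CPM in the others, highest in NEJ638 for both.

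Markers of other cells were low in Kupffer barcodes but not absent. B cell genes (4 of 4 lower), T and NK cell genes (5 of 5) and red cell genes (4 of 4) had median ratios of 0.0352, 0.0580 and 0.0673. Of 8 monocyte genes tested, Ly6c2, Ccr2, Chil3 and S100a4 were lower: Ly6c2, which marks inflammatory monocytes, was at 1.93, 1.42 and 0 CPM, and Ccr2 at 9.65, 1.70 and 2.95 CPM. For the 0 UMIs of Ly6c2 in NEJ677, the floor of 3 UMIs is 0.886 CPM. Neutrophil genes (5 of 6 lower, median ratio 0.0654), mesenchymal genes (2 of 5 lower, 0.313) and the single platelet gene tested, Itga2b (0.406), had median ratios below that of all genes as well. The mesenchymal sum was 264 CPM in Kupffer barcodes of NEJ654, against 120 CPM in its ambient profile, and Dcn, a proteoglycan of stellate cells and fibroblasts, was at 7.72, 193 and 50.5 CPM. Of 5 dendritic and capsular genes tested, Zbtb46 was lower and Cd207, described above, higher, with a median ratio of 1.03. Of 9 exocrine pancreas genes, none had enough UMIs to be tested. Their sum in NEJ638 was 48.3 CPM in Kupffer barcodes, 730 CPM in the other passing barcodes and 3445 CPM in the ambient profile, against at most 1.85 CPM for any of them in the other passing barcodes of NEJ654 and NEJ677.

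All 7 hepatocyte genes were lower, with a median ratio of 0.0938, and their sum was 1290, 2748 and 1476 CPM in Kupffer barcodes against 45126, 33347 and 38058 CPM in the ambient profile. If every UMI of hepatocyte genes in NEJ638 and NEJ654, or of neutrophil genes in NEJ677, were ambient, ambient RNA would make up at most 2.86%, 8.24% and 2.91% of the Kupffer UMIs. Endothelial genes were lower for 7 of 8, with a median ratio of 0.346. Their sum was 801, 2690 and 3191 CPM in Kupffer barcodes, against 7479, 7645 and 7147 CPM in the other passing barcodes and 2689, 1736 and 2034 CPM in the ambient profile. In NEJ654 and NEJ677 the endothelial sum of Kupffer barcodes was therefore above that of the ambient profile, and in NEJ638 below it.

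Kupffer barcodes were screened for endothelial, hepatocyte, B cell, T and NK cell, neutrophil and monocyte markers, at a minimum of 10 UMIs and 1% per class. Those that met it for any class numbered 4, 107 and 26, or 2.61%, 12.5% and 4.61%. Mesenchymal, red cell, dendritic and platelet markers were not screened. In NEJ654, 80 of these carried hepatocyte markers, with a median of 1278.5 UMIs per barcode. The 21 and 8 with endothelial markers in NEJ654 and NEJ677 had medians of 7788 and 11934 UMIs, above the 3499 and 5827.5 UMIs of Kupffer barcodes with none of the screened classes. Without all barcodes that met the screen, the endothelial sum was 748, 2374 and 2996 CPM, and Clec4f was at 3680, 3926 and 3974 CPM. The mesenchymal sum of NEJ654 was 283 CPM without them, so it did not fall. No doublet caller was run, and the part of doublets in the endothelial signal was not tested.

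Variation between Kupffer barcodes of the same library was set against that of counting alone. Over 2445 genes of at least 50 CPM in each library, the median of the squared coefficient of variation over that of Poisson draws was 1.11, 1.12 and 1.15. This spread grows with the mean UMIs of a gene per barcode. It stays low for scarce genes even where their true level varies, so these medians do not show that most genes were even. Ranked by the lowest such spread of the 3 libraries, the first 10 genes were Cxcl2, Malat1, Actb, Apoe, Cd74, Ccl4, Wfdc17, Tmsb4x, Marco and H2-Eb1. Cxcl2 was at 23.6, 29.6 and 40.3, and was exceeded among the 10 only in NEJ654, by Apoe at 32.8. Marco was at 7.83, 8.03 and 11.2, and Timd4 at 1.09, 1.38 and 1.501. The other Kupffer markers lay between, Clec4f at 2.45, 4.51 and 5.30, Cd5l at 3.03, 4.05 and 5.06, Vsig4 at 2.66, 3.28 and 2.27 and Fcna at 2.14, 4.39 and 4.25. These markers differ in level, so the order of their spreads is not an order of how much they vary. The 10% of Kupffer barcodes with the highest Cxcl2 level held 56.7%, 62.2% and 65.1% of its UMIs, while 52.3%, 40.7% and 39.5% of barcodes had any. For Marco that 10% held 34.2%, 37.5% and 41.6% of the UMIs, for H2-Eb1 75.3%, 55.9% and 63.7%, and for Timd4 19.5%, 20.1% and 17.9%. For Clec4f it held 15.1%, 13.4% and 10.3%, less than for Timd4.

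The Cxcl2-high barcodes were next compared with the other Kupffer barcodes of their library (16 against 137, 86 against 772 and 57 against 507), as a range of 1 gene and not a cell type. Ccl4 was at 2441 against 279 CPM in NEJ638, 588 against 183 in NEJ654 and 1241 against 354 in NEJ677. Tnf was at 591 against 174, 298 against 74.1 and 249 against 58.4 CPM, and Ccl2 at 916 against 211, 449 against 178 and 584 against 160 CPM. Nfkbia, the inhibitor that NF-kappaB itself induces, was at 1755 against 677, 2494 against 833 and 1918 against 634 CPM. All 4 had higher summed levels in the Cxcl2-high barcodes of each library, a description that rests on as few as 16 barcodes and on genes that vary between barcodes far beyond Poisson. Il1b was at 1355 against 341 and 1184 against 374 CPM in NEJ654 and NEJ677, and at 420 against 226 CPM in NEJ638. Fos was at 1990 against 857 and 2055 against 812 CPM in NEJ654 and NEJ677, but at 610 against 752 CPM in NEJ638. Kupffer markers moved little along this axis: Clec4f was at 3319 against 3768, 3865 against 3919.6 and 3842 against 3928 CPM, and Timd4 at 439 against 425, 449 against 457 and 504 against 548 CPM. The median UMIs were 3440.5 against 3522, 4457 against 2974 and 6553 against 5174, so the Cxcl2-high barcodes were the deeper ones in 2 libraries.

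A second ranking used the summed class II genes H2-Aa, H2-Ab1 and H2-Eb1. Cd74, outside that sum, was at 3336 against 565, 5467 against 808 and 7577 against 1488 CPM in the 10% ranked highest and the rest. Marco was lower in the class II-high barcodes, at 745 against 1586, 649.9 against 841 and 314 against 752 CPM, and Cd5l at 3072 against 4071, 3779 against 3919 and 3123 against 3794 CPM. Clec4f was at 3553 against 3747, 3668 against 3936 and 3849 against 3928 CPM, and Timd4 at 434 against 426, 476 against 455 and 605 against 536 CPM, so the class II-high barcodes carried Kupffer markers. The B cell gene Cd79a was at 15.5 against 13.2, 53.6 against 5.27 and 13.2 against 4.66 CPM, from 1, 16 and 5 UMIs in the class II-high barcodes. Cx3cr1, of capsular macrophages and monocytes, was at 124 against 8.82, 6.70 against 10.8 and 42.2 against 9.31 CPM, from 8, 2 and 16 UMIs there. Cd79a was thus higher in the class II-high barcodes of each of the 3 libraries, though from 1 UMI in NEJ638. Cx3cr1 was higher in NEJ638 and NEJ677 but lower in NEJ654. Ranked by Marco instead, the highest 10% had H2-Eb1 at 21.4 against 169.8, 204 against 263 and 225 against 558 CPM, and Cd5l at 5484 against 3794, 4684 against 3830 and 4707 against 3627 CPM. The share of doublets or of free RNA in these differences was not tested.

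**Figure D4:**
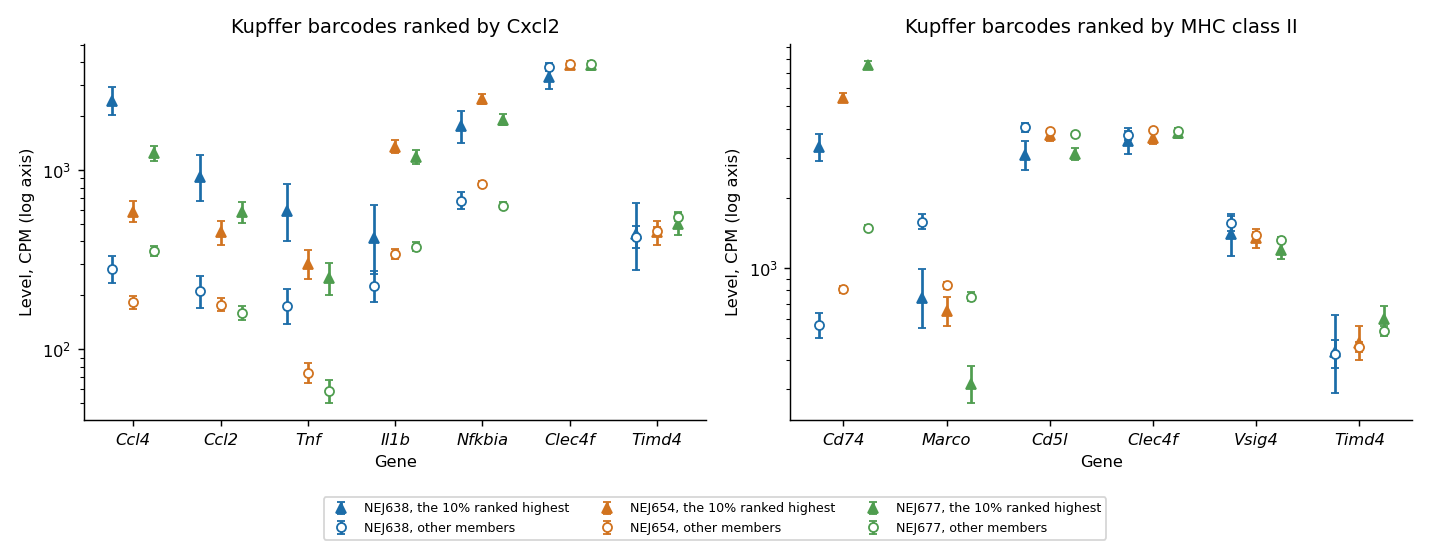
Levels in CPM (log axes, 95% Poisson bars for counting error only) in the 10% of Kupffer barcodes with the highest Cxcl2 (left) or class II sum (right) as triangles, and in the other Kupffer barcodes as open circles, by library. On the left Ccl4, Ccl2, Tnf and Nfkbia separate while Clec4f and Timd4 overlap or nearly so; on the right Cd74 is higher and Marco lower in the triangles.

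Between the 3 libraries, 738 of 931 genes with at least 200 CPM in the highest library lay within 2-fold (79.3%), with a median range of 1.49-fold. The 8 genes of widest range were Xist, Gt(ROSA)26Sor, Cxcr4, Igfbp7, Hspa1b, AY036118, Clec4g and Tfrc. Xist, the RNA of the inactive X chromosome, was at 1128, 471 and 0 CPM, from 584, 1660 and 0 UMIs. The Y-linked gene Ddx3y was at 0, 0 and 65.0 CPM, so in Kupffer barcodes Xist and Ddx3y were detected in different libraries. Other Y-linked genes went with it, Eif2s3y at 0, 0.284 and 30.4 CPM, Kdm5d at 0, 0 and 8.86 CPM and Uty at 0, 0 and 18.0 CPM. By these genes NEJ638 and NEJ654 read as female and NEJ677 as male. The part of sex in the other differences between the libraries was not tested. Igfbp7 and Clec4g, which sinusoidal endothelium expresses, were at 85.0, 791 and 804 CPM and at 73.4, 523 and 476 CPM. Both were lowest in NEJ638, as was the endothelial sum given above, in which Clec4g is itself counted, and the part of endothelial RNA in them was not tested. AY036118 was at 222, 1876 and 1695 CPM in Kupffer barcodes and at 11369, 19531 and 18403 CPM in the ambient profile.

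The remaining 4 genes were highest in NEJ638, the library with more mitochondrial UMIs and the fewest Kupffer barcodes. Gt(ROSA)26Sor, a transcript without a coding frame from the Rosa26 locus on chromosome 6 at 113067428 to 113077333, was at 620 CPM in NEJ638, 34.3 CPM in NEJ654 and 36.9 CPM in NEJ677. UMIs of it were in 72.5%, 11.5% and 17.4% of Kupffer barcodes. NEJ638 was also the highest outside Kupffer barcodes, where Gt(ROSA)26Sor was at 349.9, 27.1 and 23.96 CPM in the other passing barcodes and 299.7, 17.8 and 21.3 CPM in the ambient profile. The MYC allele of the study was placed in this locus, and the genotype of each library is not given in the sources used here. In NEJ634, NEJ687, NEJ709 and NEJ723, named as tumors, barcodes that met the C1q rule held 105, 79.9, 137 and 122 CPM. Their other passing barcodes held 125, 94.7, 336 and 225 CPM. A part of the genotype in the level of Gt(ROSA)26Sor was not tested. Cxcr4, the receptor for CXCL12, was at 294, 17.3 and 19.8 CPM in Kupffer barcodes and at 314, 116 and 96.8 CPM in the others. Tfrc, the transferrin receptor, was at 278, 57.6 and 42.5 CPM, and Hspa1b has been given above. Both were highest in NEJ638 in the other passing barcodes too, Tfrc at 148, 26.7 and 22.8 CPM and Hspa1b at 1010, 464 and 194 CPM.

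In the 4 libraries that the study names as tumors, the same C1q rule kept 950 barcodes: 406 in NEJ634, 283 in NEJ687, 27 in NEJ709 and 234 in NEJ723 (values in that order below). These libraries are set side by side with no test, and the label of NEJ709 carries the name NEJ634 in its description. C1qa was at 4024, 4837, 3869 and 4748 CPM. Clec4f was at 1517, 1140.3, 1334 and 64.6 CPM, below the 3723 to 3919 CPM of the 3 livers without tumor in every library, and Timd4 was at 302, 231, 232 and 31.4 CPM, also below all 3. Folr2 was at 358, 212, 194 and 20.3 CPM and Cdh5 at 247 CPM or less, again below all 3 livers without tumor. Marco ran the other way in 3 of the 4, at 4328, 4174 and 2294 CPM, and was at 68.8 CPM in NEJ723. Cd5l was at 5649, 5825, 3547 and 662 CPM. Lgals3, galectin 3, was at 1673, 2226, 1012 and 2936 CPM, above the 411 to 659 CPM of the livers without tumor. NEJ723 thus met the C1q rule with 234 barcodes that were nearly without Clec4f, Marco and Folr2, and the name Kupffer is not given to them. In NEJ634, 28.1% of the barcodes also carried neutrophil markers.

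**Figure D5:**
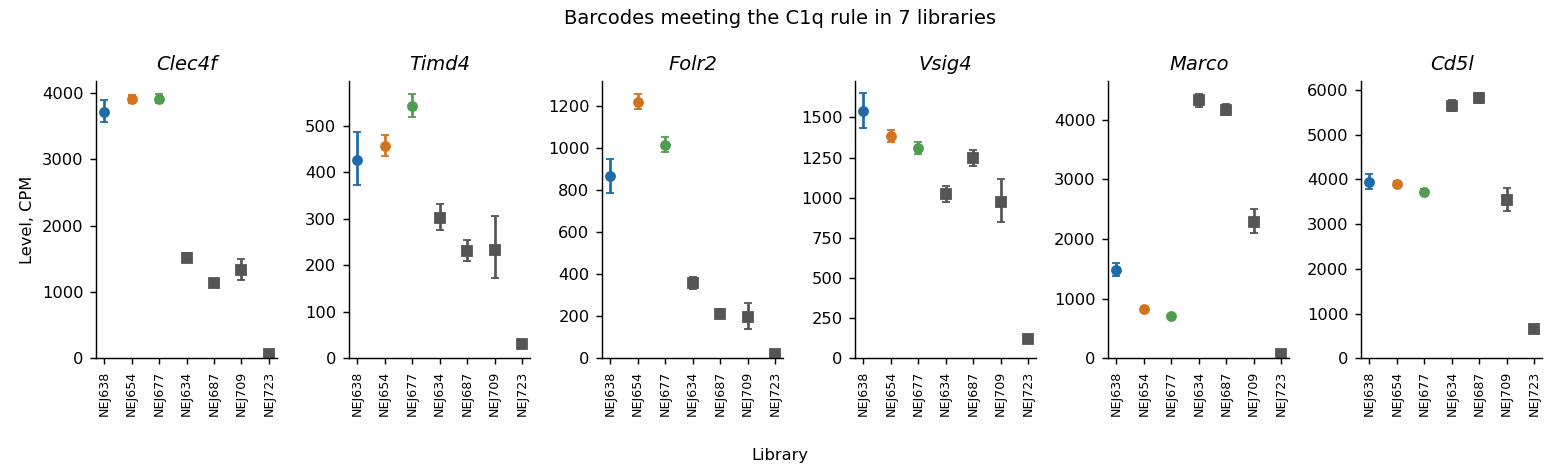
Levels in CPM (linear axes from 0, 95% Poisson bars) of 6 Kupffer identity genes in barcodes that met the C1q rule, with circles for the 3 livers without tumor and squares for the 4 further libraries. Clec4f, Timd4 and Folr2 are highest in the circles, Marco is highest in NEJ634 and NEJ687, and NEJ723 is lowest in all 6 panels.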

How the data were processed

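Dissociated liver cells were profiled by droplet single-cell RNA-seq (10x 3′ V3 chemistry, Illumina NovaSeq). The deposited files hold raw UMI counts per gene and barcode that the authors made with Cell Ranger: the labels name version 6.0 with introns counted, while the file headers carry version 4, and the genome build is not given in the sources used here. All listed barcodes were deposited, and 32285 genes were read. Gene coordinates come from GENCODE M21 (GRCm38), matched by Ensembl identifier, and sequences from RefSeq (GRCm38.p6).

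Passing barcodes had more than 1000 UMIs and at most 20% mitochondrial UMIs. Members followed the C1q rule. UMIs were summed per library and scaled to 1000000 UMIs outside mitochondrial and hemoglobin genes (CPM). Intervals are exact 95% Poisson, Clopper-Pearson or conditional binomial and, like the floor of 3 UMIs, cover counting error only. Genes with at least 100 UMIs over passing barcodes in each library were compared by ratio. Shares of barcodes were also thinned to 1000 UMIs (expected hypergeometric value). No doublet caller was run. The labels give no groups, so no test was made.

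Named genes were those of 28 lists (258 genes, of which 1 was not found under its symbol), the 12 with the largest lowest ratio, the 8 with the widest range between libraries and the 10 with the largest lowest spread between barcodes. The Y-linked genes, the genes named in the ranked comparisons and those named beside the 4 further libraries were picked after their values were seen. Members and lists were chosen with earlier results of these data known. The call of ratios and the intervals were tested on simulated data. Alternatives varied the UMI, mitochondrial and C1q minimums, the scale, the comparison barcodes, the ratio and the libraries. Python 3.11.15 with numpy 2.4.6, scipy 1.17.1, pandas 2.3.3 and matplotlib 3.10.9 was used. One listed gene is not reported here.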

Additional observations from a re-analysis of the deposited data

Results flagged for a closer look

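Barcodes below the minimum of 1000 UMIs also carried the C1q signal. Among barcodes with over 500 and up to 1000 UMIs, 6 of 745 in NEJ638, 279 of 2556 in NEJ654 and 94 of 1315 in NEJ677 met the C1q rule, a signal in barcodes that the report left out. Clec4f was at 5476, 3425 and 3357 CPM in them, from 21, 700 and 230 UMIs, and Vsig4 at 1304, 1556 and 1737 CPM, from 5, 318 and 119 UMIs. Timd4 was at 782, 382 and 365 CPM, from 3, 78 and 25 UMIs. The Kupffer barcodes of the report were at 3723, 3914 and 3919 CPM for Clec4f, 1539, 1383 and 1310 CPM for Vsig4 and 427, 457 and 543 CPM for Timd4. In both NEJ654 and NEJ677, Vsig4 was thus higher and Clec4f and Timd4 lower in the barcodes of fewer UMIs, with no test, and in NEJ638 the values rest on few UMIs.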

How the results depend on the processing

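The share of Kupffer barcodes followed the C1q minimum: at 5 UMIs and 0.5% it was 7.62%, 22.6% and 12.9% of passing barcodes, and at 20 UMIs and 2% it was 0.0627%, 5.85% and 2.72%. In NEJ654 it was 13.8% with barcodes from 500 UMIs and 13.2% without barcodes that held markers of another screened class. Genes called higher and lower numbered 535 and 974 at the looser C1q minimum and 455 and 35 at the stricter, where NEJ638 kept few barcodes. Against lymphocyte barcodes, 1262 genes were higher and 824 lower, and with a ratio of 4 in place of 2, 166 and 477. Leaving out each library in turn gave 547 to 661 genes higher and 1649 to 1844 lower. Against passing barcodes under 0.1% C1q, an alternative chosen after seeing the data, 616 were higher and 1465 lower. The levels of 6 marker genes moved by 0.521 to 2.01 times under the stricter C1q minimum and by 0.737 to 1.15 times under the other settings. No paired analysis was possible because the labels give no groups or shared replicate numbers. Few UMIs in NEJ638, and its larger loss of barcodes to the mitochondrial limit, restrict what its values can show.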
